A study of Mus musculus with 6 samples.

Results

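The Hox genes were read by 48 probe sets for 33 genes in undifferentiated mouse embryonic stem (ES) cells with and without Dicer. A probe set is a group of short array probes for one transcript. The members are all probe sets whose annotation names a single gene called Hoxa, Hoxb, Hoxc or Hoxd with a number, low intensities included, out of 45037 probe sets that are not controls. The gene table of mouse assembly GRCm38.p6 holds 39 such genes, on chromosomes 6 (cluster A), 11 (B), 15 (C) and 2 (D), and those without a probe set of this kind are not members. The values are array intensities in arbitrary units.

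The study compared 1 line of each genotype, with 3 arrays for each: D4, which is Dicer +/-, and 27H, which is Dicer -/- (27H10 in the series title). They are called heterozygous and null cells here. The labels name no other allele or agent and no passage, and they do not say whether a line is a clone or whether its arrays are of separate cultures. P-values therefore measure only the spread between these arrays, and genotype and line cannot be told apart. Dicer is an enzyme of the ribonuclease III class that makes mature microRNAs from their hairpin precursors, and the comparison asks which transcripts differ when it is missing.

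Hox genes encode homeodomain transcription factors that give cells their position along the body axis. Within a cluster the genes lie in the order of their numbers, low-numbered genes act towards the head and high-numbered genes towards the tail and in the limbs, and paralogs in different clusters share a number. In ES cells the clusters carry Polycomb chromatin and are largely silent until differentiation signals such as retinoic acid open them from the low-numbered end. The clusters also encode microRNAs that need Dicer to mature, and some of their published targets are Hox transcripts.

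The mature sequences of the miR-10 and miR-196 families are shown because they are the Dicer products of the clusters themselves. Sequences and positions are from RefSeq on GRCm38.p6, written 5′ to 3′, with the seed (bases 2 to 8), the part that pairs with targets, in capitals.
miR-10a-5p, chr11:96317186-96317208, plus strand, within the span of Hoxb3: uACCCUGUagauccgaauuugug
miR-10b-5p, chr2:74726074-74726096, plus strand, within the spans of Hoxd3 and Hoxd4: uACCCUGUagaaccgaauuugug
miR-196a-5p, chr11:96265187-96265208, plus strand, between Hoxb13 and Hoxb9, and chr15:102973365-102973386, plus strand, between Hoxc10 and Hoxc9: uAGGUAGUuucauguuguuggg
miR-196b-5p, chr6:52230129-52230150, minus strand, between Hoxa9 and Hoxa10: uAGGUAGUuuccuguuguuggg
Both miR-10 sequences share one seed and both miR-196 sequences share another. The levels of the microRNAs were not measured on these arrays.

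The arrays of both lines read as ES cells. Pou5f1 (Oct4), a core pluripotency factor, was between 11807 and 13989 on the 6 arrays, and Nanog between 5756 and 6178. Arrays of one line correlated at 0.910 to 0.917 and arrays of different lines at 0.893 to 0.903 (Pearson, across probe sets, which are no independent replicates). Dicer1 was not called by its brighter probe set, at 0.12 on the log2 scale and a limma adjusted p of 0.359; the deleted part is not given, so this checks nothing about the genotype. Of 9 fibroblast markers measured, which feeder cells would carry, 1 was called higher and 1 lower, and their summed intensity was 468 to 517 in heterozygous and 506 to 632 in null cells. Col1a1, a defining collagen of fibroblasts, was between 38.3 and 90.9 in heterozygous and between 4.44 and 7.99 in null cells, and Postn, the matrix protein periostin, between 3.21 and 4.18 on the 6 arrays. The called increase was Dcn, which encodes the matrix proteoglycan decorin and read 30.96 ± 23.8 and 263 ± 56.6 (SD, n = 3). Of the markers of other cell types, 2 of 8 neural genes were called higher and 0 lower, 0 of 7 primitive endoderm genes higher and 2 lower, and 0 of 7 mesoderm genes either way (limma; 1 higher and 1 lower at an unadjusted p under 0.05). Among all genes read by their brightest probe set, 5.05% were called higher and 4.13% lower. The summed primitive endoderm intensity was 932 to 1431 in heterozygous and 382 to 424 in null cells, with a median log2 difference of -1.36. Its called genes were Dab2, from 683 to 155, and Gata6, from 108 to 38.3. The mesoderm sum was 259 to 328 in heterozygous and 277 to 307 in null cells. The median log2 difference of the neural genes was 1.06, but they did not all move one way. By the limma adjusted p alone 2 were higher and 1 lower, against 15.6% and 15.1% of all genes. The called ones were Pax6, from 151 to 571, and Map2, from 84.1 to 251. Neurod1 fell from 1150 to 583, at -0.98 on the log2 scale (limma adjusted p 5.92e-05), short of the fold needed for a call. The summed neural intensity, which leans on the brightest genes, was 2334 to 2792 in heterozygous and 2298 to 2544 in null cells. Whether other cells had a part in the Hox values was not tested, and in bulk samples fewer cells of a type and less RNA per cell cannot be told apart.

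Hox transcripts were at the low end of the arrays in both lines. A group mean of at least 32 units was reached by 20 of the 48 Hox probe sets, or 41.7%, against 61.4% of all probe sets. The other 28 were under 32 in both lines. On a single array between 11 and 20 Hox probe sets reached 32, with 11, 20 and 15 in heterozygous and 16, 17 and 14 in null cells. The counts of the lines overlap. Only 3 probe sets reached 32 on all 6 arrays, 11 reached it on none, and 2 passed 100 on any array. The highest single Hox value was 153. The files hold no detection calls, so whether a low intensity stands above background is not known, and the intensities of different probe sets are not levels that can be ranked against each other.

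**Figure D1:**
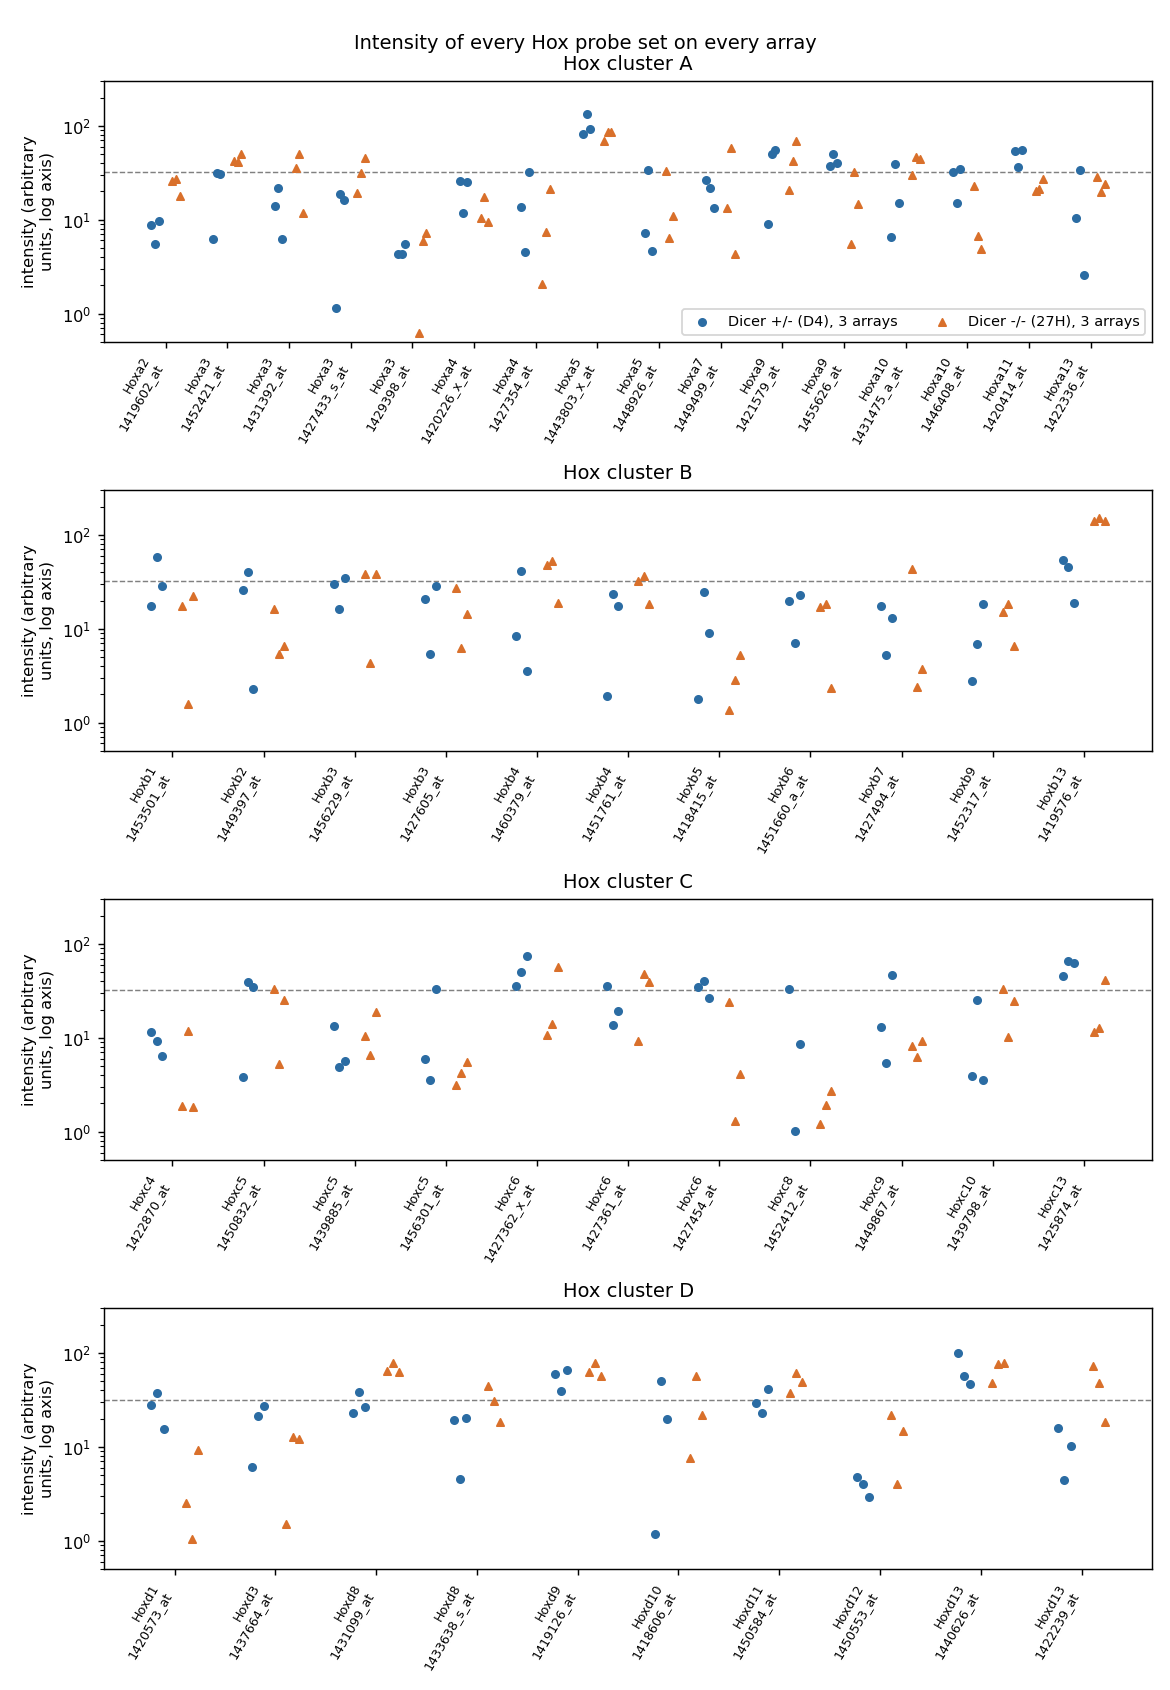
Intensity (arbitrary units, log axis) of all 48 Hox probe sets on the 6 arrays, in the order of the genes' numbers within each cluster, with heterozygous arrays as circles, null arrays as triangles and a dashed line at 32. Most points lie under the line in both lines, and the 3 null values of Hoxb13 stand between 140 and 153, above its heterozygous values of 19.0 to 54.3.

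One Hox gene, Hoxb13, was called different between the lines. A probe set was called at a limma adjusted p under 0.05, over all 45037, and a log2 difference of at least 1. Of the 48 Hox probe sets, 1 was called higher in null cells and 0 lower, against 3.57% and 3.75% of all probe sets, or 7.32% in either direction. Those shares are 1608 higher and 1688 lower, or 2217 and 1203 with each array centred on its median. The adjusted p alone gave the same 1 and 0, against 10.5% and 11.6% of all probe sets. An unadjusted p under 0.05 gave 3 higher and 3 lower, 6 of 48, against 14.2% and 16.7%, together 30.9%, of all probe sets. Counts by other processing ran from 1 to 2 higher and from 0 to 2 lower. The median log2 difference, null minus heterozygous, was -0.10 over the Hox probe sets and -0.08 over all probe sets. The Hox median was 0.20 without null replicate 2. Centring each array on its median moved the median of all probe sets to 0.07 and the Hox median to 0.05.

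Hoxb13, the highest-numbered gene of cluster B, which acts in the tail bud and the hindgut and prostate, rose. It read 54.3, 45.4 and 19.0 in heterozygous and 141, 153 and 140 in null cells. All null arrays were above all heterozygous arrays, and 1 heterozygous array was under 32. The means were 39.6 ± 18.3 and 145 ± 7.09 (SD, n = 3), 4.01-fold higher in null cells, or 3.37-fold with a floor of 32 under all values. The log2 difference was 2.0 ± 0.40 (SE), with a 95% interval of 1.13 to 2.88 and a limma adjusted p of 0.00247. Among 19 alternatives it was called in 18 and missed the threshold in 1, without an intensity trend in the variance prior (adjusted p 0.0504). The filters on 32 and on a log2 intensity of 7 in 3 arrays kept Hoxb13 through its null arrays, so those calls are not separate evidence. Its neighbour in cluster B, Hoxb9, a trunk gene of the rib-bearing region, read 2.78, 6.93 and 18.2 in heterozygous and 15.0, 18.3 and 6.61 in null cells. Every Hoxb9 value was under 32.

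The Hoxd8 values leaned the same way, and the call depended on the processing. Hoxd8 is a trunk gene of cluster D. Its probe set 1431099_at read 23.1, 38.2 and 26.5 in heterozygous and 64.6, 79.1 and 62.2 in null cells, without overlap. The log2 difference was 1.25, with a 95% interval of 0.27 to 2.24 and a limma adjusted p of 0.0698, so it was not called. With values under 32 raised to 32 the difference was 1.01 with an adjusted p of 0.0101. The probe set was called in 7 of 18 alternatives, among them both filters that keep it and both other scalings. Both filters kept it through its null arrays, where it is high, so those calls are not separate evidence. The second probe set, 1433638_s_at, whose suffix marks shared sequence, read 19.3, 4.56 and 20.3 against 44.3, 31.2 and 18.5, with overlap and an adjusted p of 0.361.

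For 11 Hox probe sets the lines had no overlapping arrays, or 22.9%, as was the case for 35.1% of all probe sets. In 6 of them null cells were above, and in 5 below. Beside Hoxb13 and Hoxd8, the null arrays were above for Hoxa2, Hoxa3 (1452421_at and 1427433_s_at) and Hoxd13 (1422239_at). They were below for Hoxa9 (1455626_at), Hoxa11, Hoxc6 (1427454_at), Hoxc13 and Hoxd1. With values under 32 raised to 32, only Hoxb13 and Hoxd8 reached a log2 difference of 1 among all 48, and 0 reached -1.

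Among genes of paralog groups 1 to 3, which pattern the hindbrain and branchial arches, 0 of 11 probe sets were called by limma, with 0 higher and 1 lower at an unadjusted p under 0.05 (30.9% of all probe sets passed that, either way). Their median log2 difference was -0.47, and 4 were above 0. Hoxd1 read 28.0, 37.5 and 15.7 in heterozygous and 2.52, 1.05 and 9.21 in null cells. It is singled out here after its values were seen, because its adjusted p of 0.058 was the lowest of the uncalled Hox probe sets. Its null values were all under 10, and its fold with values under 32 raised to 32 was 1.05-fold lower in null cells. It was called without null replicate 3, at -3.97 (adjusted p 0.0273), with array weights (0.0321) and with one probe set per gene (0.0342). Hoxa2, which specifies the second branchial arch, was at 8.76, 5.50 and 9.66 in heterozygous and 25.6, 27.3 and 17.8 in null cells, under 32 throughout, and was called only without an intensity trend (adjusted p 0.0376).

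Genes of groups 4 to 8, which act in the neck and trunk, gave 0 limma calls among 20 probe sets, and 1 higher and 1 lower at an unadjusted p under 0.05, again against 30.9%. The median was -0.47, and 7 differences were above 0. Hoxa5, which acts in cervical vertebrae and the lung, was high enough on all arrays to bound its difference. Its probe set 1443803_x_at, whose suffix marks shared sequence, read 80.8, 134 and 93.2 in heterozygous and 69.3, 86.4 and 86.2 in null cells. The groups overlap, and the 95% interval of -0.96 to 0.32 held neither a doubling nor a halving. Its other probe set, 1448926_at, read 4.67 to 33.9 over the 6 arrays. Hoxc6, a gene of the thoracic level, had 3 probe sets. The one with no overlap, 1427454_at, read 34.4, 40.1 and 26.4 in heterozygous and 24.1, 1.30 and 4.15 in null cells (limma adjusted p 0.106), and was called without null replicate 1, at -3.84 with an adjusted p of 0.024. The other Hoxc6 probe sets were at -1.31 and 0.29 and overlapped.

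Genes of groups 9 to 13, which pattern the lumbar to tail region and the limbs, held the 1 call, among 17 probe sets. The median was 0.68, and 12 differences were above 0, among them all 6 of cluster D. With values under 32 raised to 32 the median was 0.01. At an unadjusted p under 0.05, 2 were higher and 1 lower, again against 30.9% of all probe sets. Hoxd13, the digit gene at the end of cluster D, had probe sets that did not read alike. The first, 1440626_at, read 99.7, 56.6 and 46.5 against 48.0, 77.3 and 78.8 in null cells, with overlap and a 95% interval of -0.82 to 0.92. The second, 1422239_at, read 15.7, 4.43 and 10.3 against 73.3, 47.5 and 18.3, a difference of 2.16 on the log2 scale (adjusted p 0.0976). Only the first bounds the difference under 2-fold.

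The other members of cluster D in these groups overlapped between the lines. Hoxd9, which acts in the lumbar region and upper limb, read 60.5, 39.4 and 65.5 in heterozygous and 63.1, 78.0 and 56.4 in null cells. Hoxd11, a gene of the forearm, read 29.1, 22.9 and 41.0 against 37.6, 61.2 and 48.8. Neither was called, at adjusted p values of 0.706 and 0.431. Hoxd12 was under 32 on every array.

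In clusters A and C, the high-numbered probe sets without overlap were lower in null cells, and none was called. With the overlapping ones included, the differences of groups 9 to 13 went both ways. They were above 0 for 3 of 6 probe sets of cluster A and 1 of 3 of cluster C. Hoxa10 (1431475_a_at), Hoxa13 and Hoxc10, which overlapped, were at 1.34, 1.30 and 1.52. Hoxa11, a paralog of Hoxd11, read 53.2, 36.6 and 54.9 in heterozygous and 20.0, 21.2 and 26.8 in null cells (limma adjusted p 0.209). Hoxc13, which acts in hair follicles and nails, read 45.8, 66.5 and 62.8 against 11.6, 12.6 and 41.4 (adjusted p 0.0869). Its fold with values under 32 raised to 32 was 1.65-fold lower. Hoxc13 was called without null replicate 3, at -2.25, and with a filter on a mean log2 of 5 (adjusted p 0.038). That filter kept Hoxc13 through its heterozygous arrays, where it is high, so the call is not separate evidence. Hoxa11 was called only without an intensity trend (adjusted p 0.0488).

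By cluster, the median log2 differences were 0.00 for A (16 probe sets), -0.47 for B (11), -1.08 for C (11) and 0.84 for D (10). Differences were above 0 for 8 of 10 probe sets of cluster D and 3 of 11 of cluster C. With values under 32 raised to 32 the medians of clusters C and D were -0.01 and 0.11, so most of these differences lay under 32. They are descriptions, with 1 called probe set among all clusters.

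The precision at these intensities was low. The standard error of the log2 difference was 0.29 to 1.30 over the Hox probe sets, with a median of 1.0, against a median of 0.54 over all probe sets. The 95% interval held a doubling or a halving for 45 of 48 Hox probe sets. It lay between -1 and 1 for 2, Hoxa5 (1443803_x_at) and Hoxd13 (1440626_at), and above 1 for Hoxb13. A 2-fold difference was therefore not detectable for most members, and a missing call does not show equal levels. Of 11 genes with several probe sets, 6 had differences of both signs.

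**Figure D2:**
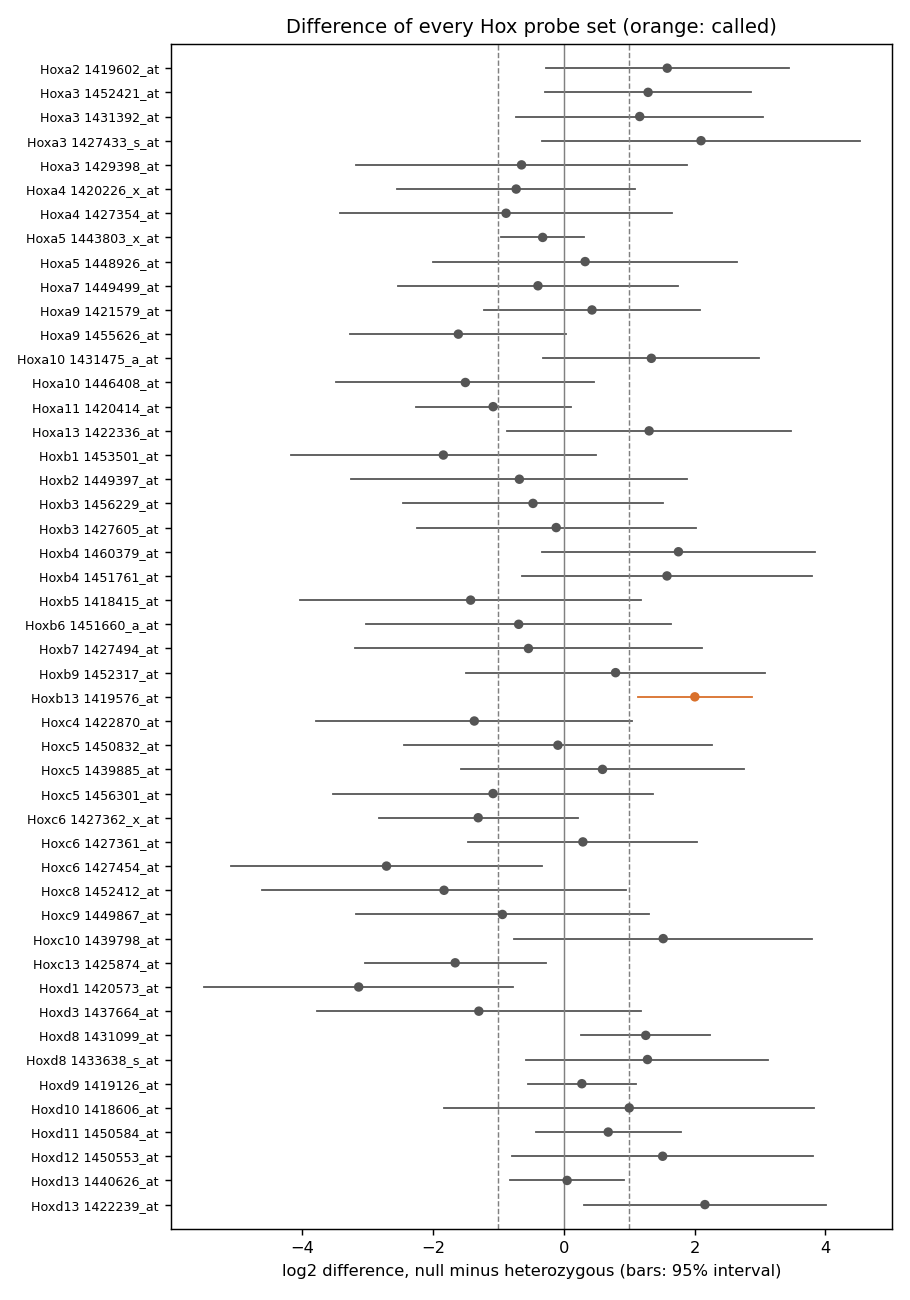
Log2 difference, null minus heterozygous, of each Hox probe set with its 95% interval from the fit over all probe sets (3 arrays a line); dashed lines mark a doubling and a halving. Hoxb13, in orange, is the only one called, with an interval of 1.13 to 2.88, and 45 intervals hold a dashed line.

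Published targets of the cluster microRNAs, known from mouse, human or zebrafish, were not called by limma. At an unadjusted p under 0.05, 1 of the miR-196 probe sets, for Hoxd8, was higher and 0 were lower, and 0 of the miR-10 probe sets passed, where 14.2% of all probe sets were higher and 16.7% lower. For miR-196, 5 of 6 listed genes were measured, by 7 probe sets, with 3 differences above and 4 below 0 and a median of -0.39. Beside Hoxd8 these were Hoxa7, Hoxa9, Hoxb7 and Hoxc8. Hoxa7, a gene of the trunk, read 26.2, 21.7 and 13.2 in heterozygous and 13.2, 57.7 and 4.33 in null cells. Hoxa9, which also acts in blood stem cells, read 8.93, 49.5 and 55.8 against 20.6, 42.6 and 69.0 by 1421579_at, and 37.6, 49.9 and 40.2 against 5.56, 32.1 and 14.8 by 1455626_at. These probe sets differ in sign (0.43 and -1.61), at adjusted p values of 0.78 and 0.174.

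The remaining miR-196 targets were near or under 32. Hoxb7 read 17.3, 5.24 and 13.1 in heterozygous and 43.5, 2.41 and 3.70 in null cells, so 1 null array stood above the rest. Hoxc8, a thoracic gene, read 32.9, 1.02 and 8.50 against 1.21, 1.94 and 2.70. Hoxb8, the best known target of miR-196, was read only by a probe set annotated to Hoxb8 and Hoxb7 together. That probe set was at 28.1, 18.8 and 29.4 in heterozygous and 18.6, 11.3 and 11.4 in null cells, lower without overlap and under 32 on all arrays (limma adjusted p 0.493).

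For miR-10, 4 of 5 listed genes were measured, by 8 probe sets, with 4 differences above and 4 below 0 and a median of 0.44. Hoxd10, a target in human cells, read 1.19, 50.5 and 19.9 in heterozygous and 7.71, 57.0 and 21.9 in null cells. The spread within each line was wider than the difference (adjusted p 0.683). Hoxa3, which patterns the third branchial arch and the thymus, had differences above 0 by 3 of 4 probe sets. Its probe set 1452421_at read 6.27, 31.3 and 30.5 against 42.7, 40.8 and 50.2, at 1.29 on the log2 scale (adjusted p 0.264). Hoxb3, its paralog, read 4.29 to 38.7 over the 6 arrays by 1456229_at, and Hoxb1, a hindbrain gene, 1.58 to 57.7. Both overlapped between the lines.

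With that shared probe set, 8 probe sets belong to the clusters but fall outside the rule. They are 3 annotated to a pair of Hox genes and 5 for the antisense transcripts Hoxa11os, Hoxb5os and Hoxd3os1. Their highest value was 53.4, for Hoxd3os1, and 0 were called by limma or had an unadjusted p under 0.05.

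Genes beside the clusters were tested in the same way. The 3 nearest measured genes on each side of each cluster gave 24 genes, with 1 called higher and 1 lower, against 5.05% and 4.13%, together 9.18%, of 18193 genes read by their brightest probe set. Evx1, a homeobox gene at the high-numbered end of cluster A, rose from 83.4, 90.0 and 44.6 to 195, 130 and 211, 2.52-fold with an adjusted p of 0.0069. It was not called with values under 32 raised to 32 across the array (adjusted p 0.0909) or without an intensity trend (0.0857). Evx2, its counterpart beside cluster D, read 6.48 to 56.7 over the 6 arrays with overlap. Snx11, a sorting nexin on the low-numbered side of cluster B, fell from 412 ± 48.5 to 168 ± 2.02 (SD, n = 3).

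Cofactors that bind DNA with Hox proteins changed in both directions. Of 8 TALE-class homeobox genes measured, which form the Pbx, Meis and Pknox (Prep) families, 3 rose and 1 fell. Among all genes 5.05% were called higher and 4.13% lower. The median was 0.80 against -0.03 over all genes. Meis2 rose from 102, 181 and 120 to 709, 756 and 730, 5.60-fold or 2.49 ± 0.18 (SE) on the log2 scale (limma adjusted p 6.75e-07). All 4 of its probe sets were called higher. Pbx3 rose from 538, 493 and 541 to 1511, 1507 and 1762, 3.04-fold, and Pknox2 2.55-fold. The other Pknox2 probe set was at 1.06 and not called (limma adjusted p 0.0683). Meis3 fell from 89.7, 66.8 and 79.1 to 8.42, 9.07 and 27.6, 2.44-fold lower with the floor of 32. Meis3 was not called without heterozygous replicate 1 (adjusted p 0.0518). The groups did not overlap for any of these genes, but they were picked by their calls, and 35.1% of all probe sets had no overlap. Meis1 and Pbx2 were not called, at 0.26 and -0.12.

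Of 8 homeobox genes of the ParaHox group and the Evx family, 1 was higher, Evx1, and 1 lower, against 5.05% and 4.13% of all genes. Cdx2, a caudal factor that activates trunk Hox genes and marks trophectoderm, read 49.8, 51.2 and 117 in heterozygous and 29.5, 2.83 and 3.21 in null cells, a call with a limma adjusted p of 0.0212. It was called in 11 of 17 alternatives. With values under 32 raised to 32 it was 2.09-fold lower and not called (adjusted p 0.16), nor was it without an intensity trend (0.118). Without heterozygous replicate 1, 2 or 3, or null replicate 2, the adjusted p values were 0.0552, 0.0592, 0.12 and 0.0591. The other Cdx2 probe set was under 32 on all arrays and overlapped, at -0.56 (limma adjusted p 0.793).

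Polycomb genes, whose products keep the clusters silent, changed in both directions. Of 15 measured, 3 were higher and 1 lower by the call, against 5.05% and 4.13% of all genes. By the adjusted p alone 7 were higher and 4 lower, against 15.6% and 15.1% of all genes. Ezh1, the second methyltransferase of Polycomb complex PRC2, rose from 295 ± 17.2 to 823 ± 84.5 (SD, n = 3), 2.78-fold, and Bmi1, a subunit of PRC1, from 436 ± 43.8 to 1238 ± 201, 2.82-fold. Cbx7, the chromodomain subunit that ES cells use most, fell from 1384 ± 77.4 to 592 ± 20.4, 2.34-fold. Cbx8, another chromodomain subunit, was higher by one probe set, from 38.7 ± 8.72 to 135 ± 32, and lower by the other, from 24.9 to 2.73, where all values were under 32. Of the PRC2 core genes, Suz12 was higher by 0.62 on the log2 scale without overlap (limma adjusted p 3.39e-05), short of the fold needed for a call, and Ezh2 and Eed were at 0.15 and -0.13 with adjusted p values of 0.27 and 0.225. Of 12 trithorax and MLL genes measured, which keep Hox genes active, 0 passed the fold needed for a call, and by the limma adjusted p alone 0 were higher and 4 lower. At an unadjusted p under 0.05, 0 were higher and 5 lower, against 19.9% and 20.3% of all genes. The 4 were Kmt2d, Men1, Wdr5 and Kmt2b, which encode a methyltransferase, the scaffold menin, a core subunit and another methyltransferase of MLL-type complexes. Their log2 differences were -0.95, -0.68, -0.51 and -0.33.

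**Figure D3:**
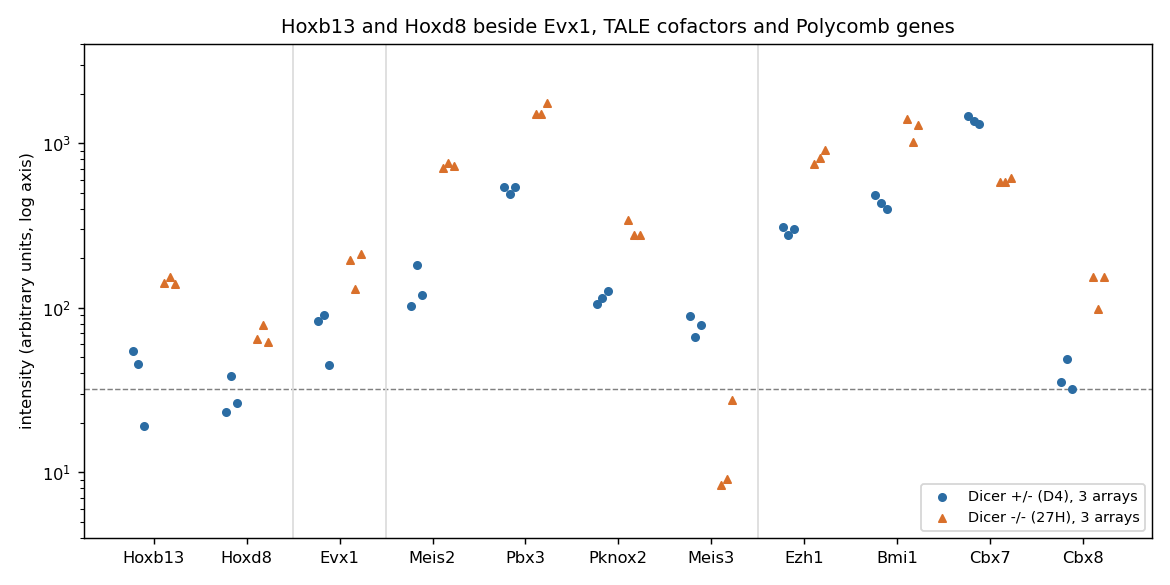
Intensity (arbitrary units, log axis) on the 6 arrays of Hoxb13 and Hoxd8, of Evx1, of the called TALE cofactors and of the called Polycomb genes by their brightest probe sets, with heterozygous arrays as circles, null arrays as triangles and a dashed line at 32. The lines do not overlap for any gene shown, and Meis3 and Cbx7 are lower in null cells; levels of different genes are not comparable.

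Of 13 genes of the retinoic acid, Wnt and growth factor inputs to the clusters, 3 were higher and 2 lower, against 5.05% and 4.13% of all genes. Crabp1, a carrier of retinoic acid, fell from 220, 247 and 197 to 31.2, 1.38 and 72.0, 5.26-fold lower with the floor of 32. The call was lost without heterozygous replicate 1 or 2 (adjusted p 0.0566 and 0.0642), without an intensity trend (0.194) and with robust eBayes (0.136). Rarb, a retinoic acid receptor that is itself induced by retinoic acid, read 3.31, 1.41 and 3.72 against 32.7, 29.9 and 20.8, a call in which both means were under 32 and which was lost with values under 32 raised to 32 (adjusted p 0.599). It was not called without heterozygous replicate 2, null replicate 1 or null replicate 2 (adjusted p 0.0694, 0.0755 and 0.071). Lef1, a transcription factor of the Wnt pathway, fell 3.73-fold by its brightest probe set. Its other probe set was at -0.64 with overlap (limma adjusted p 0.508). Wnt3a, a Wnt ligand of the tail bud, rose from 27.7, 49.1 and 36.4 to 127, 90.7 and 135. Of 6 repressors listed, among them Gmnn (geminin) and Ctcf, 0 were called by limma. By the adjusted p alone 0 were higher and 2 lower, against 15.6% and 15.1% of all genes. At an unadjusted p under 0.05, 1 was higher and 2 lower, against 19.9% and 20.3%. Gmnn was at -0.33 with an adjusted p under the threshold, at 0.00535.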

How the data were processed

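The deposited values are array intensities on a linear scale for 45101 probe sets, as the values themselves show, and the authors' scaling gave every array a trimmed mean of 500 units (2% trimmed at each end). The submitters' processing notes name GCRMA and no other tool, and its role is not given in the sources used here. Arrays were grouped by their titles. After 64 control probe sets were left out, log2 intensities of 45037 probe sets were tested without a filter on low values, so that no member was dropped or selected. The test was limma 3.58.1 in R 4.3.3 (a linear model per probe set, with a variance prior that followed mean intensity). It was two-sided, with Benjamini-Hochberg adjustment over all probe sets. The fit was run on simulated normal data, with changes planted only at a mean log2 above 5. Only 10 of the 48 Hox probe sets reached that, so this does not cover detection at most Hox intensities. Genes came from the platform annotation: 34945 probe sets had 1 symbol, 932 several and 9160 none. Genes outside the clusters were read by their brightest probe set. Means ± SD are of linear intensities, and folds come from means of log2 values. The arrays' number limits the precision.

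Same-numbered arrays were not paired: correlations of their deviations from the line means were -0.00 to 0.02. The members, gene lists and tests were chosen with earlier results of these data known. By the rule for names, values are given for called Hox probe sets, for the 8 with the highest mean, for published microRNA targets, and for up to 4 called genes of each list. Others were chosen after their values were seen.

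Alternatives were 3 filters, a floor or pseudocount of 32, other scalings, variance priors, array weights, the replicate number as a block, other thresholds, other choices of probe sets and leaving out each array.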

Additional observations from a re-analysis of the deposited data

How the results depend on the processing

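Among 28 Hox probe sets named, 434 of 460 values under alternatives kept their sign, 23 turned it, none of them called, and 3 were 0 with values under 32 raised to 32. The count of Hox probe sets called higher was 2 with either of the filters at 32 in 3 arrays and at a mean log2 of 5, with values under 32 raised to 32, with arrays centred on their medians, with quantile normalization, without an intensity trend and with robust eBayes. Hoxd8 was called in each of these, beside Hoxb13 or, without the trend, Hoxa2. The count called lower was 1 with a mean log2 filter of 5, without the trend, with array weights and with one probe set per gene. Leaving out 1 array each gave 1 higher and 0 to 2 lower. The Hox median was 0.28 with the filter at 32 in 3 arrays, 0.16 with a mean log2 filter of 5, 2.0 with the strictest filter, a log2 intensity of 7 in 3 arrays (Hoxb13 alone, kept through its null arrays), -0.32 with one probe set per gene, and -0.19 to 0.20 with 1 array left out. Each filter tests fewer Hox probe sets, 17, 10 and 1, and can keep a probe set through the line where it is high. With the replicate block, Hox counts were 1 and 0, and the count over all probe sets was 1647 higher and 1776 lower, against 1608 and 1688; the numbers do not pair the samples. All probe sets called were 977 higher and 836 lower with one probe set per gene, 4727 and 5226 by the adjusted p alone, 980 lower with the strictest filter and 1093 lower with log2(intensity + 32). Leaving out 1 array gave 1425 to 1634 higher and 1299 to 1796 lower. With arrays centred on their medians, 2217 were higher and 1203 lower. Where not stated, the cause of a change was not tested. Low signal limits most Hox differences.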

Other observations

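Homeobox genes outside the Hox clusters were called at a share near that of all genes, and no comparison with the clusters was tested. Of 63 genes of the Dlx, Msx, Nkx, Lhx, Irx, Otx, Pitx, Gbx, Emx, Alx, En, Barx, Isl and Rhox families, the Six-type (sine oculis) genes, and Hesx1, Gsc and Mixl1, read by their brightest probe sets, 5 were higher and 2 lower in null cells, together 11.1%, against 9.18% of all genes. The list was made after the Hox values were seen, and 37 of its 63 genes reached a group mean of at least 32. Rhox6 and Rhox9, X-linked homeobox genes of the germline and placenta, rose from 332 ± 35.1 to 1368 ± 40.2 and from 342 ± 53.5 to 964 ± 160 (SD, n = 3). Rhox13 of the same X-linked cluster fell from 273 ± 40.0 to 103 ± 22.8. The LIM homeobox genes Lhx9, Lhx2 and Lhx6 rose by log2 differences of 1.99, 1.62 and 1.08, Lhx9 and Lhx2 from heterozygous means of 22.3 and 31.6 and Lhx6 from 110. Lhx6 was at 0.99 without null replicate 1 and at 0.90 with log2(intensity + 32). Nkx2-9 fell by 1.02 on the log2 scale, and was short of the threshold without heterozygous replicate 2 (-0.92) or null replicate 3 (-0.87), with log2(intensity + 32) (-0.92), after median centring of each array (-0.86) and with weights for the arrays (-0.99).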
